A study of Mus musculus with 9 samples.

Results

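Omp, the 4 genes of the stomatin family (Stom, Stoml1, Stoml2 and Stoml3) and Umodl1 were followed in the messenger RNA of 3 sorted populations of the mouse main olfactory epithelium, all taken at an age of 4 weeks. These 6 genes, of 21909 gene symbols, were chosen by name and selected on their FPKM in the same libraries, where several of them climb steeply towards mature neurons. Their levels are therefore a description, and no test is attached to them. HBC (horizontal basal cells) were sorted with the antibody anti-CD54-PE, which binds the product of Icam1. GBC (globose basal cells) were sorted by green fluorescence from Neurog1-EGFP, and mOSN (mature olfactory sensory neurons) by green fluorescence from OMP-ires-EGFP. Strain, sex and any pooling of animals were not given in the sources used here. For poly-A RNA 1 library per population was made, so no difference has a replicate check. ScriptSeq was used for HBC, and the Illumina mRNA kit for GBC and mOSN. Kit and population therefore cannot be told apart in any comparison with HBC.

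Omp encodes the olfactory marker protein, a small cytoplasmic protein that is abundant in mature olfactory sensory neurons and shapes the speed of the odorant response. Stomatin itself, the product of Stom, inserts a hydrophobic hairpin into the inner leaflet of the membrane. Stomatins are membrane proteins that carry the SPFH domain, which they share with prohibitins, flotillins and erlins. They form oligomers in cholesterol-rich membrane and bind and tune ion channels and transporters. Stom is best known from red blood cells, Stoml3 from olfactory neurons and touch receptors, Stoml1 from membranes of the late endosome and Stoml2 from the inner mitochondrial membrane. Umodl1 encodes a large protein of the uromodulin kind with a zona pellucida domain and is known as olfactorin from olfactory neurons. Omp itself is not a membrane protein, and it is grouped with the others only by its levels.

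The libraries were first set against marker genes of their labels. Depth, as implied by the width of the intervals, came to 18123310 fragments for HBC, 18086991 for GBC and 16515790 for mOSN. All 9 basal cell markers reached 1 FPKM in HBC, with a summed level of 1462 FPKM in HBC, 15.1 FPKM in GBC and 28.4 FPKM in mOSN. Most of the GBC and mOSN sums was Dst, which had 27.1 FPKM in HBC, 13.1 FPKM in GBC and 24.9 FPKM in mOSN. FPKM is the number of fragments scaled to transcript length and to sequencing depth. All 11 macrophage markers also reached 1 FPKM in the HBC library, where they summed to 3838 FPKM, against 6.11 in GBC and 4.68 in mOSN. In the GBC library Neurog1 had 163 FPKM, while Kit, which marks globose basal progenitors, had 1.15 FPKM. The 10 immature neuron markers summed to 44.0 FPKM in HBC, 3024 FPKM in GBC and 584 FPKM in mOSN. All 15 mature neuron markers, Omp among them, summed to 140.2 FPKM in HBC, 1315 FPKM in GBC and 8709 FPKM in mOSN. Precursor markers (9 genes) summed to 15.9 FPKM in HBC, 731 FPKM in GBC and 123 FPKM in mOSN. Lhx2 held 109.5 FPKM of the mOSN sum, and the next highest, Sox11, had 4.57 FPKM there. The 10 markers of sustentacular (supporting) cells summed to 1960 FPKM in HBC, 51.2 FPKM in GBC and 164 FPKM in mOSN. Of all basal, macrophage, sustentacular, precursor and neuronal markers, Aif1 in mOSN was the only one listed at 0. Both immature and mature neuron genes were thus measured in the library labelled GBC, and macrophage genes in the library labelled HBC. In bulk RNA, fewer cells of a type and less RNA per cell cannot be told apart.

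Promoter windows of 3 members are shown because these genes rose most of the 6 from GBC to mOSN while their start sites differ in base composition. They run from 250 bases before to 50 bases after the start of transcription, and come from RefSeq on GRCm38.p6. The window of Stom is chr2:35336960-35337259 (minus strand), that of Stoml3 is chr3:53488457-53488756 (plus strand) and that of Umodl1 is chr17:30954433-30954732 (plus strand). Capitals mark CG dinucleotides, the sites where cytosine methylation mostly falls.
Stom: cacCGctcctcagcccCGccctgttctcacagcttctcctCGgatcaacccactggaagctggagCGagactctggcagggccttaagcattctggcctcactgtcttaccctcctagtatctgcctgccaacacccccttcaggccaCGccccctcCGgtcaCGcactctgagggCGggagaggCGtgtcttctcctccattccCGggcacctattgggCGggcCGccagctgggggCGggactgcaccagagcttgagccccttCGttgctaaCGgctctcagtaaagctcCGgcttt
Stoml3: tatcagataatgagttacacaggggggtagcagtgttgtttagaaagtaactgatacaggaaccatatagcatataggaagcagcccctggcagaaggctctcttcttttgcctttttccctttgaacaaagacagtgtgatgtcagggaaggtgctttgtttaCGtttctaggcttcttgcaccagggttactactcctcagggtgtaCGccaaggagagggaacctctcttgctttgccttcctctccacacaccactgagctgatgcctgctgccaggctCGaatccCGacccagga
Umodl1: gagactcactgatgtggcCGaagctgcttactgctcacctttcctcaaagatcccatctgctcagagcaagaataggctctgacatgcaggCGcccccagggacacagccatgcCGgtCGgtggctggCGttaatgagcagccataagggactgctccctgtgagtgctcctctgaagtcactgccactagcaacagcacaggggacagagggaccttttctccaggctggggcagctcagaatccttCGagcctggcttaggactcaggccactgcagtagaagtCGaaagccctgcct

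The Stom window held 16 CG dinucleotides at a GC content of 63.3%, the Umodl1 window 7 at 57.7% and the Stoml3 window 4 at 49.3%. The median over 32851 windows of the same length was 7 CG dinucleotides, with quartiles of 3 and 20. Stoml3 lay near the lower quartile and Stom above the median, although both genes were among the 3 highest of the mOSN library. The windows of Stoml1 and Stoml2 held 11 and 24 CG dinucleotides. A window was found for 5 of the 6 members. The core of the Olf/EBF motif, CCCNNGGG on both strands, occurred once among the 5 windows, 156 bases before the start site of Umodl1, and in 13.7% of all windows. The homeodomain core TAATTA occurred in none of the 5 and in 5.29% of all. Both motifs read the same on either strand, no match of one overlapped the other here, and a match describes letters in the window only.

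Omp (chromosome 7, 105291869 to 105293957 on mm9) had 71.6 FPKM in HBC (interval 69.4 to 73.9), 427 FPKM in GBC (interval 423 to 432) and 1487 FPKM in mOSN (interval 1477 to 1497). It was the highest of the 6 genes in HBC and in GBC but stood behind Stoml3 and Stom in mOSN. The intervals come from the authors' software and describe counting error at most, because 1 library per population holds no spread between replicates. PCR copies of a fragment are not independent molecules, so the intervals may be too narrow even for counting error. Omp is also the gene behind the mOSN sort, and it lies inside the locus of Capn5, whose fragments in the overlap cannot be told apart from its own. Its ratio of mOSN over GBC was 3.48-fold, or 1.80 on the log2 scale with 1 FPKM added to both sides. That is just under the 4-fold used here as a call, which also asks for at least 5 FPKM in the higher library. Between GBC and HBC its log2 ratio was 2.56, and this step was called.

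Stom and Stoml3 were nearly level with each other in all 3 libraries. Stom (chromosome 2, 35169510 to 35192529) had 25.7 FPKM in HBC (interval 24.8 to 26.6), 183 FPKM in GBC (interval 179.5 to 186) and 1843 FPKM in mOSN (interval 1832 to 1854). Stoml3 (chromosome 3, 53292715 to 53311574) had 29.1 FPKM in HBC (interval 27.0 to 31.1), 158 FPKM in GBC (interval 153.5 to 163) and 2148 FPKM in mOSN (interval 2129 to 2167). The higher gene of the pair exceeded the other by 1.13-fold in HBC, 1.16-fold in GBC and 1.17-fold in mOSN. Stoml3 led in HBC and mOSN and Stom led in GBC, and the intervals did not overlap in any library. Stoml3 ranked 2nd of all genes by FPKM in mOSN and Stom ranked 3rd, after ranks of 114 and 90 in GBC and 980 and 1167 in HBC. The log2 ratio of mOSN over GBC was 3.75 for Stoml3 and 3.33 for Stom. For GBC over HBC it was 2.40 and 2.78. Both genes were thus called at both steps, which held for 79 of 10340 genes that reached 5 FPKM in a library, or 0.764%. With median-of-ratios scaling the ratio of GBC over HBC of Stoml3 was 1.915 on the log2 scale and no longer called.

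Umodl1 (chromosome 17, 31091628 to 31147655) started lower and climbed later. It had 7.28 FPKM in HBC (interval 6.85 to 7.71), 28.2 FPKM in GBC (interval 27.5 to 29.0) and 528 FPKM in mOSN (interval 524 to 531). Its log2 ratio of mOSN over GBC, 4.18, was the 4th highest of 8678 genes that reached 5 FPKM in either library. Stoml3 stood 20th, Stom 50th and Omp 833rd in the same order. At the earlier step Umodl1 had the smallest ratio of these 4 genes, 1.82 on the log2 scale for GBC over HBC, and was not called. With 1 conversion per gene that ratio of Umodl1 was 2.07 and called, and that of Stom was smaller, at 2.02. The fold of mOSN over HBC was 73.9 for Stoml3, 72.5 for Umodl1 and 71.7 for Stom, against 20.8 for Omp. With 1 conversion per gene the log2 ratio of mOSN over HBC was 6.08 for Stoml3, 5.94 for Umodl1 and 5.27 for Stom, so the closeness of Stom to the other steep genes depended on that conversion.

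The other stomatin genes stayed low. Stoml1 (chromosome 9, 58100971 to 58110331), whose protein joins a stomatin domain to a sterol carrier domain, had 4.28 FPKM in HBC (interval 3.75 to 4.797), 18.2 FPKM in GBC (interval 17.3 to 19.1) and 31.4 FPKM in mOSN (interval 29.9 to 32.8). Its level was higher at each later population, with a log2 ratio of 0.75 for mOSN over GBC and 1.86 for GBC over HBC, and neither step was called. Stoml2 (chromosome 4, 43040562 to 43044256), which organises cardiolipin-rich inner mitochondrial membrane, had 3.94 FPKM in HBC (interval 3.41 to 4.46), 10.9 FPKM in GBC (interval 10.1 to 11.7) and 8.97 FPKM in mOSN (interval 8.07 to 9.87). It was the only one of the 6 genes lower in mOSN than in GBC, with a log2 ratio of -0.25. Its 397 and 753 implied fragments in mOSN and GBC were fewer than those of any other member. In HBC the intervals of Stoml1 and Stoml2 overlapped, and these were the only neighbours in the order of levels, in any library, whose intervals did.

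**Figure D1:**
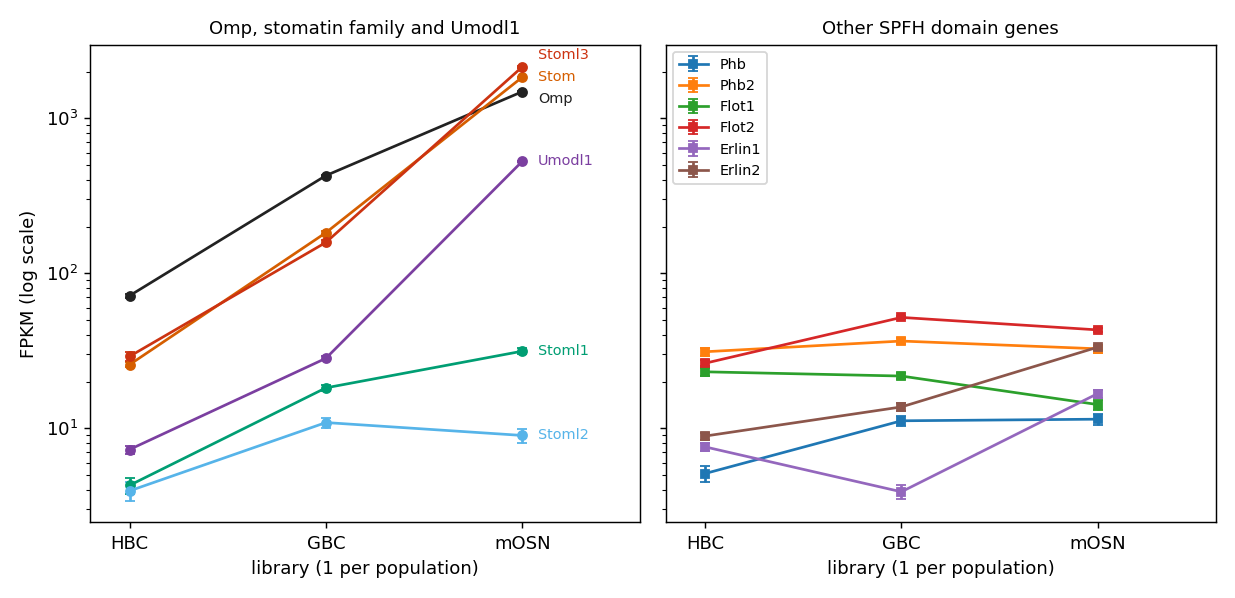
FPKM on a log scale in the HBC, GBC and mOSN libraries (1 each), for the 6 genes on the left and for 6 other SPFH domain genes on the right; bars are the authors' intervals. Stom and Stoml3 run together to 1843 and 2148 FPKM in mOSN, Stoml1 and Stoml2 end at 31.4 and 8.97 FPKM, and all SPFH genes on the right stay between 3.88 and 51.9 FPKM.

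The make-up of the stomatin family shifted with these levels. The 4 genes summed to 63.0 FPKM in HBC, 370.1 FPKM in GBC and 4031 FPKM in mOSN. Stom and Stoml3 together made up 87.0% of the sum in HBC, 92.1% in GBC and 99.0% in mOSN. All 6 genes together held 0.0836% of the FPKM summed over every gene of the HBC library, 0.449% of that of GBC and 2.53% of that of mOSN.

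The members were then read against all genes. Between mOSN and GBC, 3 of the 6 were called higher in mOSN (Stom, Stoml3 and Umodl1) and none lower, where 7.12% of 8678 genes were called higher and 3.16% lower. The intervals lay apart for all 6, with 5 higher in mOSN and Stoml2 lower. Among all genes 54.6% had intervals apart and higher, and 30.3% apart and lower. Between GBC and HBC, 3 members were called higher in GBC (Omp, Stom and Stoml3) and none lower, beside 15.5% and 16.5% of 9101 genes. Intervals lay apart with the higher value in GBC for 6 of 6 members, for 58.6% of all genes, and the other way for 35.2%. Between mOSN and HBC, 5 members were called higher in mOSN, all except Stoml2, and none lower, beside 24% and 15.8% of 9779 genes. Intervals lay apart with the higher value in mOSN for 6 of 6 members and 63.9% of all genes, and the other way for 30% of genes. The members were chosen on these contrasts, so nothing is read from their counts. Each pair of these comparisons shares 1 library.

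The balance of calls over all genes depended on the scale. For mOSN against GBC, 69.3% of called genes were higher in mOSN as deposited, and 65.4% after median-of-ratios scaling. The share was 49.2% with all libraries brought to the same summed FPKM and 53.8% with 1 conversion from fragments to FPKM per gene. Rescaling to TPM gave 45.7%, but 1 FPKM is 4.19 to 5.89 TPM here, so that setting also makes the pseudocount and the floor smaller in FPKM. For GBC against HBC, 48.4% were higher in GBC on the deposited scale, and median-of-ratios scaling gave 34.8%. The same summed FPKM gave 45.0%, 1 conversion per gene 47.4% and TPM 50.2%. For mOSN against HBC, 60.3% were higher in mOSN on the deposited scale, 48.0% with the same summed FPKM, 49.3% in TPM, 48.8% with 1 conversion per gene and 45.9% after median-of-ratios scaling. The median log2 ratio over genes of at least 1 FPKM was 0.24 for mOSN over GBC, 0.46 for GBC over HBC and 0.63 for mOSN over HBC. With the same summed FPKM the value for mOSN over GBC was -0.08, and with median-of-ratios scaling it was 0.16. Median-of-ratios scaling moved the values for GBC over HBC and mOSN over HBC to 0.05 and 0.15, and the same summed FPKM to 0.38 and 0.23. Stoml2, at -0.25 between mOSN and GBC, stayed below 0 under each of the 4 scalings. The same summed FPKM, TPM and median-of-ratios scaling lower mOSN relative to GBC, so they could not have lifted Stoml2 above 0. Stoml1, at 0.75, stayed above 0, with a lowest value of 0.21 under 1 conversion per gene.

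**Figure D2:**
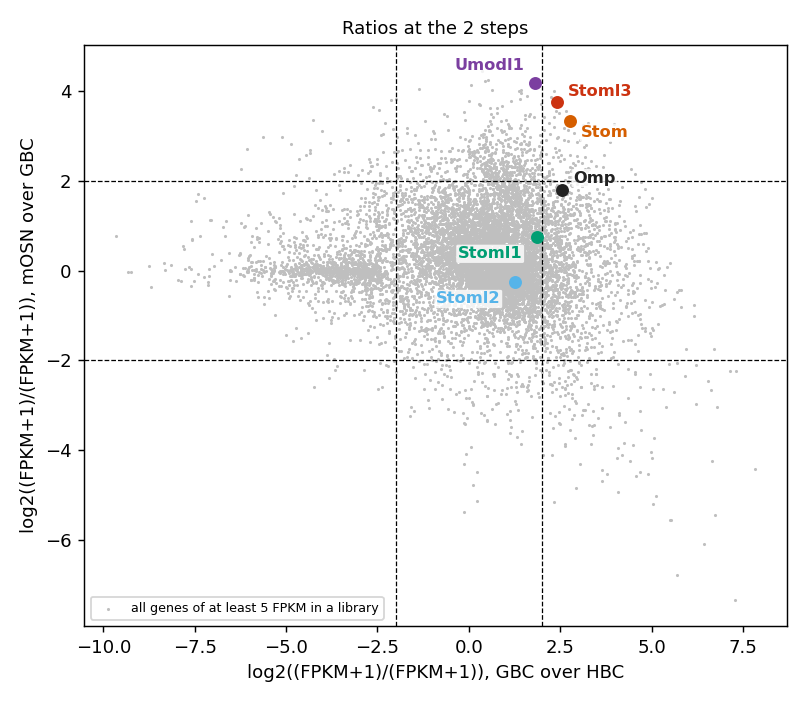
Log2 ratio of mOSN over GBC (vertical axis) against that of GBC over HBC (horizontal axis), with 1 FPKM added, for 10340 genes in grey and the 6 members in colour; dashed lines mark 4-fold. Stom and Stoml3 lie past both lines, Umodl1 past the horizontal line only, Omp past the vertical line only, and Stoml1 and Stoml2 inside both.

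Levels outside the mature neurons were set beside those of mature neuron markers. In HBC, Stoml3 stood at 1.35% of its mOSN level, Umodl1 at 1.38%, Stom at 1.39% and Omp at 4.82%. The 23 other mature neuron markers with at least 20 FPKM in mOSN ranged from 0.429% (S100a5, a calcium-binding protein) to 7.37% (Gnb1, a G protein beta subunit), with a median of 1.77%. The floor in mOSN favours low percentages and left out 1 marker, Nrcam (a neuronal adhesion gene), which had 7.79 FPKM in HBC, 2.68 FPKM in GBC and 1.26 FPKM in mOSN. The 3 steep members were thus within the range of these markers, while Omp was above 21 of the 23. Stoml1 stood at 13.6% and Stoml2 at 43.9%, above these 23 but below Nrcam at 616%, and Stoml2 would itself not pass that floor. In GBC the levels were 5.35% of mOSN for Umodl1, 7.36% for Stoml3, 9.92% for Stom and 28.7% for Omp, where the markers ranged from 5.92% (Cngb1, a subunit of the odorant-gated channel) to 172% (Calb2, a calcium-binding protein), with a median of 16.6%. Omp exceeded 19 of the 23 there. The part of mature neurons in the HBC and GBC sorts was not tested. Since Stom is a protein of the red cell membrane, 9 erythroid genes were read too, and they summed to 100.2 FPKM in HBC, 298 FPKM in GBC and 81.8 FPKM in mOSN. Slc4a1, the anion exchanger gene of the red cell membrane, stayed under 1 FPKM in every library. Most of the sum was globin. Beta-s had 45.6 FPKM in HBC, 259.6 FPKM in GBC and 68.1 FPKM in mOSN, while Hba-a2 had 48.4 FPKM in HBC, 3.75e-05 FPKM in GBC and 6.87 FPKM in mOSN. Hba-a1 and Hba-a2 are near-identical copies, so their separate values are uncertain. The part of red cells in the Stom values was not tested.

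**Figure D3:**
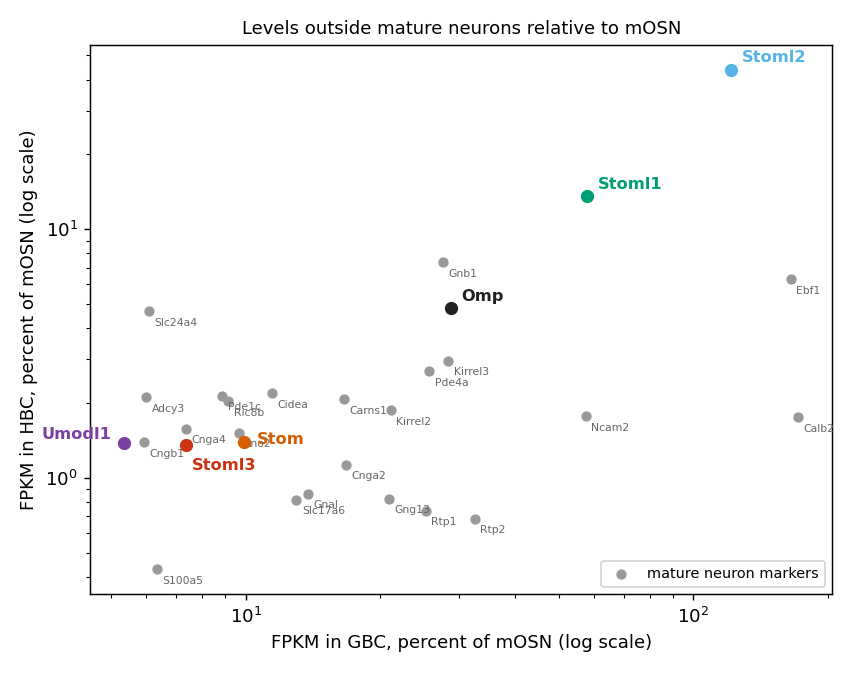
FPKM in HBC (vertical axis) and in GBC (horizontal axis) as a percent of the FPKM in mOSN, both on log scales, for the 6 members in colour and 23 mature neuron markers in grey. Stom, Stoml3 and Umodl1 lie between 1.35% and 1.39% on the HBC axis, Omp at 4.82%, and Stoml1 and Stoml2 above the 23 markers shown.

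Genes with the most similar pattern were found by the distance between log2 ratios at both steps, among genes of at least 20 FPKM in a library. The measure rests on 3 libraries only, so many genes come close by construction. Within a distance of 0.5 there were 3 genes for Umodl1, 9 for Stoml3, 12 for Stom, 54 for Omp, 144 for Stoml1 and 275 for Stoml2. Nearest to Umodl1 were Cngb1 (distance 0.37), the adenylyl cyclase gene Adcy3 (0.42) and Ephx4, an epoxide hydrolase gene (0.45). Adcy3 had 11.5 FPKM in HBC, 32.8 FPKM in GBC and 547 FPKM in mOSN, close in level to Umodl1 as well. Nearest to Stom were Nrn1l (0.20), Plekhb1 (0.22) and Manea (0.26), and among these Plekhb1 came closest in level, at 18.3 FPKM in HBC, 117.6 FPKM in GBC and 1071 FPKM in mOSN. Nearest to Stoml3 were Mir330 (0.09), the potassium channel gene Kcnc4 (0.18) and the protocadherin gene Pcdhb1 (0.22). Mir330 is a short microRNA locus listed at 0 in HBC, with intervals of 0.42 to 7.53 FPKM around 3.97 in GBC and of 50.7 to 80.3 around 65.5 in mOSN, so its distance is poorly determined. Nearest to Omp were P4htm, Ccdc40 and Jph3 at 0.06 each. In HBC these 3 genes had 0.604, 1.23 and 0.356 FPKM, against 71.6 FPKM for Omp. Their distances to Omp therefore depend on the added 1 FPKM. Nearest to Stoml1 were the transcription factor gene Pbx3 (0.0071), Cyb5d1 (0.045) and the calmodulin gene Calm3 (0.052). Nearest to Stoml2 were the nuclear import gene Tnpo3 (0.0091), Atxn2l (0.011) and Ap1m1 (0.033). Among the members themselves Stom and Stoml3 were nearest (0.57), followed by Stoml3 and Umodl1 (0.72).

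Relatives and partners of the members were taken from lists. Of 7 other SPFH domain genes, 6 reached 1 FPKM and 0 were called in any comparison. Over all genes 7.12% were called higher and 3.16% lower in mOSN than in GBC. These shares were 15.5% and 16.5% for GBC against HBC, and 24% and 15.8% for mOSN against HBC. Little can therefore be read from 6 genes. The median log2 ratio of the 6 was -0.06 for mOSN over GBC, beside 0.24 for all genes. For GBC over HBC it was 0.40, beside 0.46. The prohibitins Phb and Phb2, scaffolds of the inner mitochondrial membrane, had 11.4 and 32.5 FPKM in mOSN, against 11.2 and 36.5 in GBC. The flotillin Flot2, a lipid raft scaffold, had 43.1 FPKM in mOSN and 51.9 in GBC. Erlin1 and Erlin2, which mark cholesterol-rich parts of the endoplasmic reticulum, were the exceptions in size. Erlin1 had 7.57 FPKM in HBC, 3.88 FPKM in GBC and 16.7 FPKM in mOSN, a log2 ratio of 1.86 for mOSN over GBC. Its GBC level was 23.2% of that in mOSN, so only the added 1 FPKM kept it from a call. Erlin2 had 8.89, 13.7 and 33.3 FPKM in the same order, a log2 ratio of 1.22.

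The mitochondrial partners of Stoml2 form a list that also holds Phb and Phb2. None of 10 was called between mOSN and GBC or between GBC and HBC, and Yme1l1, an inner membrane protease, was the 1 called between mOSN and HBC, with 34.6 FPKM in mOSN and 7.82 in HBC. Over all genes 7.12% were called higher and 3.16% lower in mOSN than in GBC. For GBC against HBC these shares were 15.5% and 16.5%, and for mOSN against HBC 24% and 15.8%. Little can be read from 10 genes. The list's median log2 ratio was 0.41 for mOSN over GBC, 0.52 for GBC over HBC and 0.92 for mOSN over HBC, beside 0.24, 0.46 and 0.63 for all genes. Between GBC and HBC, Opa1, a gene of inner membrane fusion, had a log2 ratio of 1.59 and Oma1, a protease gene, one of -1.41, and neither was called.

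Of 13 genes tied to stomatin function, 4 reached 1 FPKM in mOSN or GBC, and Adcy3 was the 1 called between them. The list median was 0.80 on the log2 scale, beside 0.24 for all genes. Of all genes 7.12% were called higher and 3.16% lower in mOSN. Between GBC and HBC, 8 of the 13 were measured, with a median of -1.82 beside 0.46 for all genes. Accn2 was called higher in GBC, and Fam38a, Slc2a1 and Aqp1 (a water channel gene) were called lower. The shares of all genes were 15.5% higher and 16.5% lower, and little can be read from lists this short. Adcy3 protein has been found with the Stoml3 protein in mouse olfactory cilia. Accn2, the acid-sensing channel gene also named Asic1, had 27.9 FPKM in mOSN and 18.0 in GBC, against 0.956 in HBC. Fam38a, the mechanosensitive channel gene also named Piezo1, had 10.8 FPKM in HBC, 0.0823 FPKM in GBC and 0.141 FPKM in mOSN. Fam38b (Piezo2), whose channel Stoml3 tunes in mouse touch receptors, had 0.851 FPKM in HBC, 0.0102 FPKM in GBC and 0.0382 FPKM in mOSN. Cav1, the caveolin gene, had 1.64 FPKM in HBC, was listed at 0 in GBC and had 0.0212 in mOSN. The glucose transporter gene Slc2a1, whose product binds stomatin, had 44.6 FPKM in HBC, 7.20 FPKM in GBC and 15.3 FPKM in mOSN.

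Other zona pellucida domain genes were nearly silent beside Umodl1. Of 14, 1 reached 1 FPKM in mOSN, Tgfbr3 (a co-receptor of transforming growth factor beta) at 1.49, and 3 did so in HBC. Umod itself was listed at 0 in mOSN and had 0.0129 FPKM in GBC.

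Omp binds Bex proteins, small neuronal proteins, and influences calcium removal. Of 14 genes on that list, 9 reached 1 FPKM and 2 were called higher in mOSN than in GBC, with a list median of 1.39 on the log2 scale. These were the sodium-calcium exchanger gene Slc8a1, at 26.6 FPKM in mOSN against 2.92 in GBC, and Slc24a4, the exchanger of olfactory cilia, at 57.9 FPKM in mOSN against 3.52 in GBC. Among all genes, 7.12% were called higher and 3.16% lower in mOSN than in GBC, with a median of 0.24, and little can be read from 9 genes. Atp2a2, the calcium pump of the endoplasmic reticulum, had 124 FPKM in mOSN against 35.2 in GBC. Of 5 Bex genes on the list, Bex1, Bex2 and Bex4 were called higher in GBC than in HBC, and Ngfrap1 (Bex3) and Bex6 were not. In that comparison 15.5% of all genes were called higher and 16.5% lower. Bex2 had 1.76 FPKM in HBC, 52.5 FPKM in GBC and 56.7 FPKM in mOSN, and Bex1 had 0.0921, 15.2 and 3.19 FPKM in that order. For mOSN over GBC the log2 ratio was -1.95 for Bex1 and -1.50 for Bex4, not called, and Ngfrap1 had 16.6 FPKM in HBC, 42.7 FPKM in GBC and 45.8 FPKM in mOSN.

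Of 24 mature neuron markers, 15 were called higher in mOSN than in GBC and 0 lower, beside 7.12% and 3.16% of all genes. The median log2 ratio of the 24 was 2.56, beside 0.24 for all genes. The 15 called were S100a5, Gnal, Gng13, Cnga2, Adcy3, Ric8b, Cnga4, Kirrel2, Carns1, Pde1c, Ano2, Cngb1, Slc17a6, Slc24a4 (also on the calcium list) and Cidea. The log2 ratios of Stom, Stoml3 and Umodl1 lay above the marker median and those of Omp, Stoml1 and Stoml2 below it. S100a5 was the only marker of the list with a higher FPKM in mOSN than Stoml3, at 2918 FPKM. At the earlier step 16 of the 24 were called higher in GBC than in HBC and 0 lower, with a median of 2.86, close to the 2.78 of Stom. For all genes at that step 15.5% were called higher and 16.5% lower, with a median of 0.46. The list was written with earlier results of these libraries known, so its counts are no independent measure of direction.

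The conversion behind FPKM differed between libraries and, between GBC and HBC, was most unequal for Stom and Omp among the members. The implied fragments per FPKM of Stom numbered 117 for HBC, 67.9 for GBC and 58.6 for mOSN, and those of Omp 56.9, 91.5 and 57.3 in that order. Over all genes of at least 50 fragments the ratio of that conversion, GBC over HBC, differed 8.17-fold between its 5th and 95th percentiles, and that of mOSN over GBC 2.26-fold. With 1 conversion per gene, the log2 ratio of GBC over HBC was 2.02 for Stom and 3.24 for Omp, and Stom fell to 5.27 for mOSN over HBC. The calls of Stom, Stoml3 and Umodl1 in mOSN against GBC were kept under all 11 alternatives. The lower threshold, the smaller pseudocount, the floors, and the rules on rows and status could not have removed them.

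**Figure D4:**
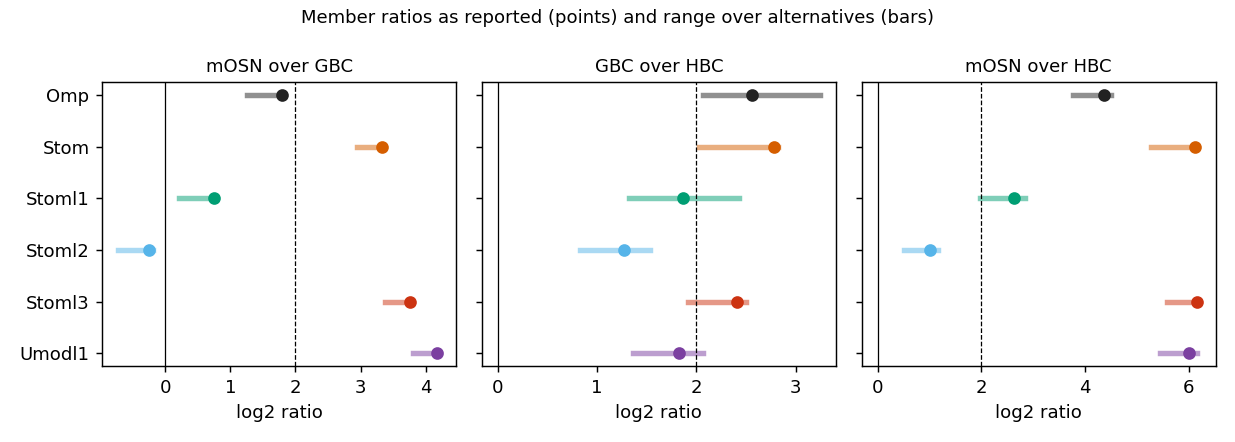
Log2 ratio of each member in the 3 comparisons (points as reported, bars the range over 8 alternative scalings, pseudocounts and row rules); the solid line marks 0 and the dashed line 4-fold. No bar crosses 0, and Stom, Stoml3 and Umodl1 stay past 4-fold for mOSN over GBC, between 2.95 and 4.22.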

How the data were processed

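Poly-A RNA of 3 libraries (HBC, GBC, mOSN) was analysed. Protein features, planned too, were not used here. The 3 samples of 5-hydroxymethylcytosine and 3 of 5-methylcytosine were not analysed here. The authors deposited FPKM per gene with the bounds of an interval and a status column, as read per the file headers. Bowtie, TopHat, Cufflinks and the build mm9 are named, without versions, per the submitters' processing notes. The annotation, strand use and handling of shared fragments were not given in the sources used here.

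Every library's table held 22345 rows for 21909 symbols, and rows of 1 symbol were added up. Starts were raised by 1. Implied fragments n were solved from the interval, taken as FPKM plus or minus 2 FPKM over the root of n. For rows of up to 100 fragments, n lay within 0.03 of a whole number in 77.9% (HBC), 69.7% (GBC) and 69.3% (mOSN). Ratios were log2 with a pseudocount of 1 FPKM, which understates low genes. A call needed an absolute log2 ratio of 2 and 5 FPKM in the higher library. With 1 library per group no test was made, and the call rule was tested on simulated data. Rows of status FAIL (8 to 30 a library) and LOWDATA (247) were kept, and no member had either.

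Members and lists were chosen with earlier results of these data known. Named genes were the 6 members, the 3 genes most like each, and from each list those called between mOSN and GBC or highest in FPKM. Receptor, predicted and immune segment symbols were left out of the likeness search. Of 156 list entries, 155 were found, 8 of them under another symbol, and some list genes are not reported here. Alternatives were pseudocounts of 0.1 and 5 FPKM, floors of 0 and 20 FPKM, rescaling to 1 sum in all libraries (the TPM scale), scaling by the median of ratios, 1 conversion per gene, the highest row per symbol, a log2 threshold of 1, and leaving out FAIL and LOWDATA rows. After seeing the data, scaling to the mean summed FPKM was added, because the TPM scale also shrinks the pseudocount and floor. Python 3.11.15 with pandas 2.3.3 and numpy 2.4.6 was used.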

Additional observations from a re-analysis of the deposited data

How the results depend on the processing

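All 18 member ratios kept their direction under the 8 alternatives that apply to them, 144 values in all. Many of these could not have turned: a change of pseudocount cannot reverse a ratio. Taking the highest row or leaving out FAIL and LOWDATA rows could not move a member at all. The TPM scale and the same summed FPKM apply the same relative scaling. Of the 144 values, 5 moved by over 1.5-fold. They were Omp (3.24) and Stom (2.02) for GBC over HBC and Stom (5.27) for mOSN over HBC with 1 conversion per gene, Omp (3.77) for mOSN over HBC with median-of-ratios scaling and Stoml1 (1.97) for mOSN over HBC with a pseudocount of 5 FPKM, which ended its call. Members called higher in GBC than in HBC numbered 3, but 5 with 1 conversion per gene (Stoml1 and Umodl1 added), 6 with a log2 threshold of 1, 4 with a pseudocount of 0.1 FPKM (Stoml1 added) and 2 with median-of-ratios scaling, which dropped Stoml3. The causes were not tested.

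Over all genes, calls higher and lower in mOSN than in GBC (618 and 274) became 173 and 88 with a pseudocount of 5 FPKM, 305 and 109 at a floor of 20 FPKM, and 2186 and 801 at a log2 threshold of 1. The lower calls became 957 on the TPM scale and 492 with 1 conversion per gene. The TPM scale changes the size of the pseudocount and the floor together with the sum. With the same summed FPKM and both kept, chosen after seeing the data, calls were 357 and 369 for mOSN against GBC, 1362 and 1664 for GBC against HBC and 1701 and 1841 for mOSN against HBC. Calls higher and lower in GBC than in HBC (1410 and 1503) became 504 and 643, and 663 and 638, under the same pseudocount and floor, and 2771 and 2753 on the TPM scale. The higher calls became 3351 at the log2 threshold of 1. Calls higher and lower in mOSN than in HBC (2351 and 1549) became 918 and 645, and 1143 and 632, under that pseudocount and floor. The higher calls became 4340 at the log2 threshold of 1 and the lower calls 3146 on the TPM scale. No paired analysis was possible because each population has 1 library. For the same reason no replicate could be left out, and depth bounds counting error only.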

Other observations

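On mm9, 0 of 13 flanking or overlapping genes were called higher or lower in any of the 3 comparisons. Over all genes 7.12% were called higher in mOSN than in GBC and 3.16% lower. The shares were 15.5% and 16.5% for GBC against HBC, and 24% and 15.8% for mOSN against HBC. Little can be read from 13 genes. Some, such as Glp1r and B3gnt6, stayed under 1 FPKM in every library and could not be called. Omp lies inside the locus of Capn5, a calpain gene, which had 1.91 FPKM in HBC (2.67% of Omp), 3.73 in GBC (0.873%) and 7.32 in mOSN (0.492%). Use of strand in counting was not given in the sources used here, so fragments in their overlap cannot be told apart. Pigo, beside Stoml2, had 3.29 FPKM in HBC, 9.99 FPKM in GBC and 11.7 FPKM in mOSN. Gsn, the gelsolin gene beside Stom, had 61.9 FPKM in HBC, 22.4 FPKM in GBC and 16.3 FPKM in mOSN. Abcg1, a sterol transporter gene beside Umodl1, had 23.0, 12.9 and 18.4 FPKM in the same order of libraries.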
